A study of Mus musculus with 24 samples.

Results

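The levels of 9 retinoid signaling genes were followed in striata of R6/1 mice and wild type littermates. These genes are all 3 retinoic acid receptors (Rara, Rarb, Rarg), all 3 retinoid X receptors (Rxra, Rxrb, Rxrg), the retinoic acid synthesizing enzyme Aldh1a1, the cytosolic retinoic acid binding protein Crabp1 and the retinol carrier Rbp4. The genes were chosen by name, with earlier results of these data known, so they are not a set independent of the data. All 9 were found among the 24340 genes shared by the 6 deposited comparison tables. R6/1 mice are a model of Huntington's disease that carries human HTT exon 1 with an expanded CAG repeat as a hemizygous transgene on a C57BL/6J background. RGFP109 is an inhibitor of the histone deacetylases HDAC1 and HDAC3. It was injected into the peritoneum at 30 mg/kg, 5 times a week for 3 weeks, from an age of 11 to 14 weeks, and vehicle mice received the dimethyl sulfoxide and saline solution alone. Striata were taken 18 h after the last injection, at 14 to 17 weeks of age. All mice were male. RNA was sequenced from 5 WT-vehicle, 6 R6/1-vehicle, 6 WT-RGFP109 and 7 R6/1-RGFP109 mice, in 2 pools that each held libraries of all 4 groups.

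Retinoic acid is made from vitamin A. Retinol travels in blood on Rbp4, is oxidized to retinal and then, by retinaldehyde dehydrogenases such as Aldh1a1, to retinoic acid, which is bound in the cytosol by Crabp proteins and broken down by Cyp26 enzymes. In the nucleus it binds retinoic acid receptors, which sit on DNA as pairs with retinoid X receptors, often at direct repeats of a short core motif spaced by a few bases. Rarb and Rxrg are the members of their families best known for expression in the striatum, where retinoid signaling is known to act on dopamine receptor genes, and Rarb is itself a classical target of retinoic acid.

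Each deposited table gives 1 FPKM value (fragments scaled by transcript length and by the number of mapped fragments) per group, pooled by the authors over the mice of that group. There is no value for a single mouse in these tables, so no spread between mice, no test over mice and no p-value is given here, and every difference below describes group values without a replicate check. A ratio is the log2 of the quotient of 2 group values of the same table, each after adding 0.05 FPKM. A gene is called past the fold when its ratio is above 0.5 or below -0.5, a change to more than 1.41 times or to less than 70.7% of the other group. The same ratios over the 13715 genes with a mean of at least 1 FPKM serve as the background, and all 9 retinoid genes are among them.

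Sequences before the annotated start are shown for the 3 genes that were past the fold in R6/1 mice with either treatment, because the receptors act through such motifs. They are the 250 bases before the start in RefSeq on GRCm38.p6, read 5′ to 3′ on the strand of the gene, with every match to the core motif AGGTCA, to its variant AGTTCA, to the variant GGGTCA or to the variant GGTTCA, on either strand, in capitals. The Rarb window is chr14:16575477-16575726 on the minus strand, at a start inside the deposited locus, 506855 bases from its 5′ end. It was the only Rarb window searched, and which start the striatal Rarb RNA came from was not tested. The Rxrg window is chr1:167598112-167598361 on the plus strand and the Rbp4 window chr19:38125322-38125571 on the minus strand, each directly before the 5′ end of the deposited locus.
Rarb: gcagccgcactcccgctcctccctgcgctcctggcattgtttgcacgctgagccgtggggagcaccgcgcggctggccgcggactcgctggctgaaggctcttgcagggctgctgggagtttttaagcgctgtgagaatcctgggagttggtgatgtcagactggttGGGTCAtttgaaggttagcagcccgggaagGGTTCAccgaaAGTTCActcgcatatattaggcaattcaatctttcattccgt
Rxrg: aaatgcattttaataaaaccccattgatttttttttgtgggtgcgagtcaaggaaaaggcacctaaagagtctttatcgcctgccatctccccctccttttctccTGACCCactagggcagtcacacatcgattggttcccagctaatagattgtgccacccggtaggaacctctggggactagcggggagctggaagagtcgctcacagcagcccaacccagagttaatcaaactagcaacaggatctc
Rbp4: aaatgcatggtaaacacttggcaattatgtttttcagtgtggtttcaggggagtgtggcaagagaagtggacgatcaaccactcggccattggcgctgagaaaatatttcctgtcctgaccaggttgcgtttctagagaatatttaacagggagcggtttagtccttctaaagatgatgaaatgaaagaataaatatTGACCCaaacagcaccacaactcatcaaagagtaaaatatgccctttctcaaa
The Rarb window holds 3 matches, of which the last 2 form a direct repeat spaced by 5 bases, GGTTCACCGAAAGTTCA, lying 53 to 37 bases before the start. Such a repeat of these letters was present in 29 of 32851 windows of the same length, or 0.0883%. The Rxrg and Rbp4 windows shown hold 1 match each, both on the opposite strand, and 38.6% of all windows hold at least 1. Rxrg and Rbp4 each have another annotated start, whose window is not shown. It holds 2 matches for Rxrg, both on the strand of the gene, and 0 for Rbp4. Over the 18 windows of the 9 genes, 8 held a match, 1 held a direct repeat spaced by 5 bases and 0 held one spaced by 1 or 2 bases. A match describes letters and does not show that a receptor binds there.

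In WT-vehicle striatum the most abundant retinoid genes were receptors. Rxrg had the highest level, 62.0 FPKM, followed by Rxrb with 42.6 and Rarb with 38.2 FPKM (medians over the 3 tables that hold a group). Aldh1a1 with 24.6 and Rbp4 with 24.0 FPKM were nearly level, Crabp1 with 11.1 and Rxra with 9.65 FPKM came next, and Rarg with 5.46 and Rara with 2.75 FPKM were lowest. WT-RGFP109 mice had the same order. In R6/1-vehicle mice Rxrb, with 33.7 FPKM, stood above Rxrg, with 30.9 FPKM, and the other 7 genes kept their places. The same exchange was seen in R6/1-RGFP109 mice, where Rxrb had 36.2 and Rxrg 27.3 FPKM, and there Rxra with 9.35 FPKM also stood above Crabp1 with 8.95 FPKM. Values of 1 group differed between tables by up to 1.04 times for these genes, through a factor that was nearly common to all genes, so ratios were always taken within a table.

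**Figure D1:**
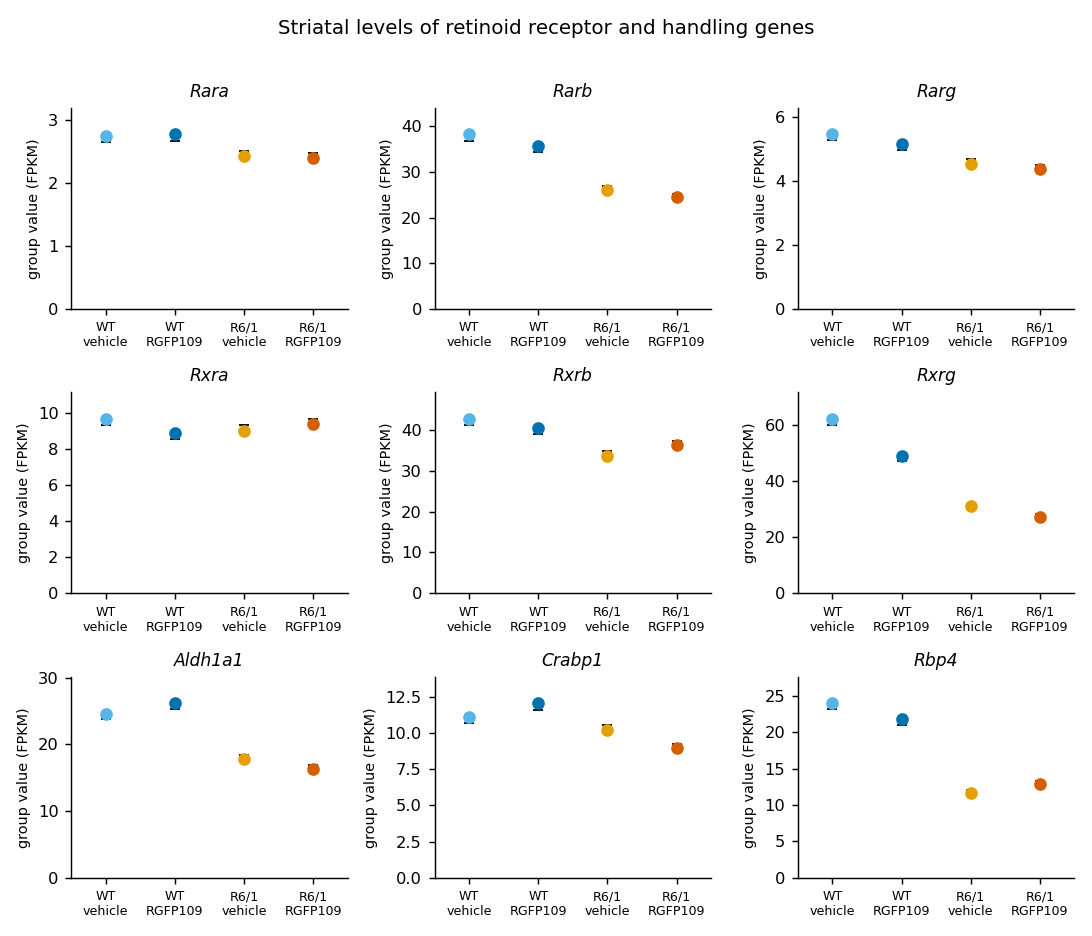
Group values in FPKM (y axis, from 0) of the 9 retinoid genes in the 4 groups (x axis). Points are medians over the 3 tables that hold a group and bars run from the lowest to the highest of them, which shows scaling between tables and not spread between mice. For Rxrg both R6/1 groups, at 30.9 and 27.3 FPKM, lie below both WT groups, at 62.0 and 48.9 FPKM.

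The comparison of R6/1-vehicle with WT-vehicle asks how the disease model differs without treatment. All 9 retinoid genes were lower in R6/1 mice, with a median ratio of -0.34 beside a median of -0.00387 over all genes. Of these, 3 were lower past the fold, namely Rxrg, Rbp4 and Rarb, and 0 were higher past the fold. Over all genes, 10.1% were lower and 3.95% higher past the fold. In bulk striatum a loss of cells that express a gene and a lower RNA level per cell cannot be told apart.

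Among the retinoic acid receptors, Rarb carried most of the RNA and most of the difference. Rarb was at 38.2 FPKM in WT-vehicle and 26.0 FPKM in R6/1-vehicle mice, 68.0% of wild type and a ratio of -0.56, and 8.60% of all genes had a lower ratio. Rarb lies at chr14:16430840-17082331 in mm10. Rarg, a receptor best known from skin and cartilage, went from 5.46 to 4.54 FPKM (-0.26), and the broadly expressed Rara from 2.75 to 2.42 FPKM (-0.18). The lowest member of the family thus differed least. Summed over the family, 46.4 FPKM in WT-vehicle stood against 32.9 FPKM in R6/1-vehicle, and Rarb made up 90.7% of that difference. Its share of the family was 82.3% in WT-vehicle and 78.9% in R6/1-vehicle mice.

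Beside Rarb lies Top2b, which encodes a DNA topoisomerase, on the opposite strand. The deposited locus of Top2b ends at 16430787, just before that of Rarb begins, while in the GENCODE M21 annotation their exons share 1793 bases. The library kit as named does not mark strand, so reads in that stretch cannot be assigned to one of the genes. Top2b was at 19.9 FPKM in WT-vehicle and 21.8 FPKM in R6/1-vehicle mice, with ratios of 0.13 for genotype with vehicle and 0.07 with RGFP109, opposite in sign to those of Rarb.

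The retinoid X receptors differed from each other more. Rxrg, which lies at chr1:167598362-167639623, was at 62.0 FPKM in WT-vehicle and 30.8 FPKM in R6/1-vehicle mice, 49.7% of wild type. Its ratio was -1.01, and 2.96% of all genes had a lower one. Rxrb, the broadly expressed member, went from 42.6 to 33.6 FPKM (-0.34), and Rxra, best known from liver and skin, from 9.65 to 8.97 FPKM (-0.10). The summed level of the family was 114 FPKM in WT-vehicle and 73.4 FPKM in R6/1-vehicle mice, and Rxrg made up 76.3% of the difference. Rxrg was 54.3% of the family's FPKM in WT-vehicle and 42.0% in R6/1-vehicle mice, while Rxrb was 37.3% and 45.8%.

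**Figure D2:**
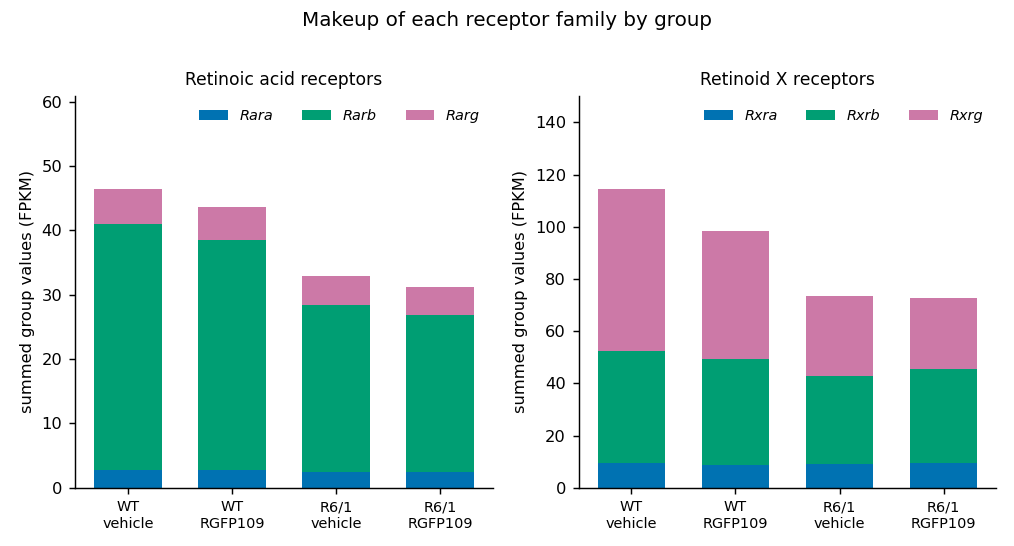
Summed group values in FPKM (y axis, from 0) of the retinoic acid receptors (left) and the retinoid X receptors (right) in the 4 groups (x axis), stacked by gene. The retinoid X receptor bars are shorter in R6/1 mice mainly in the Rxrg segment, and Rarb is the main segment of the retinoic acid receptors in every group.

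Of the genes that make and carry retinoids, Rbp4 differed most. Rbp4 was at 24.0 FPKM in WT-vehicle and 11.7 FPKM in R6/1-vehicle mice, 48.7% of wild type, and its ratio of -1.03 was the lowest of the 9 genes. It lies at chr19:38116620-38125321. Aldh1a1 at chr19:20601982-20643462 is known in this region from dopaminergic fibers whose cell bodies lie in the midbrain. Which cells its RNA came from here was not tested. It went from 24.6 to 17.7 FPKM, a ratio of -0.47 that stayed inside the fold. Crabp1, which binds retinoic acid in the cytosol, was at 11.1 and 10.2 FPKM (-0.12).

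The comparison of R6/1-RGFP109 with WT-RGFP109 asks the same of treated mice and shares no library with the first. In all, 8 of the 9 genes had a ratio of the same sign as with vehicle, beside 81.9% of all genes. Rxrg, Rbp4, Aldh1a1 and Rarb were lower past the fold and 0 genes were higher past it, while over all genes 8.68% were lower and 3.51% higher past the fold. The median ratio of the 9 genes was -0.43, beside 0.00969 over all genes. Rxrg, Rbp4 and Rarb were past the fold in both genotype comparisons, as were 6.42% of all genes in the lower direction.

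Rxrg was at 49.0 FPKM in WT-RGFP109 and 27.3 FPKM in R6/1-RGFP109 mice (-0.85). Rbp4 was at 21.9 and 12.9 FPKM (-0.76), and Rarb at 35.8 and 24.5 FPKM (-0.54). Aldh1a1 had 26.2 FPKM in WT-RGFP109 and 16.4 FPKM in R6/1-RGFP109 mice, 62.4% of wild type and a ratio of -0.68, so it passed the fold here and not with vehicle. Crabp1 was at 12.1 and 8.95 FPKM (-0.43), and the other retinoic acid receptors Rarg and Rara had ratios of -0.24 and -0.21. Rxrb was at 40.5 and 36.2 FPKM (-0.16). The exception in sign was Rxra, at 8.90 FPKM in WT-RGFP109 and 9.35 FPKM in R6/1-RGFP109 mice (0.07).

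Set side by side, the genotype ratios of the retinoic acid receptors were nearly the same with either treatment. The ratio with RGFP109 minus that with vehicle was 0.01 for Rarb, 0.02 for Rarg and -0.03 for Rara. The 3 retinoid X receptors had ratios closer to 0 or above it with RGFP109, by 0.18 for Rxra, 0.18 for Rxrb and 0.16 for Rxrg. Rbp4 moved in the same direction by 0.27, while Aldh1a1 moved away from 0 by -0.21 and Crabp1 by -0.31. The middle 90% of all genes ran from -0.30 to 0.35, and of the 9 genes Crabp1 alone fell outside it. Whether the genotype difference depended on treatment was not tested, because single mice have no value in these tables.

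**Figure D3:**
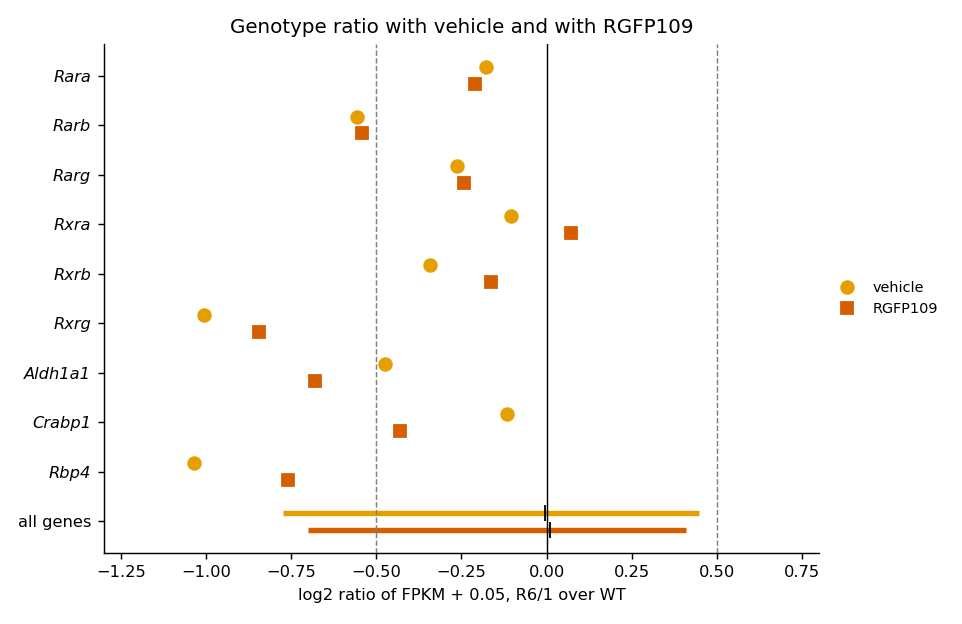
Log2 ratio of R6/1 over WT group values (x axis) for the 9 retinoid genes (y axis), with vehicle (circles) and with RGFP109 (squares). Dashed lines mark -0.5 and 0.5, and the bottom bars run from the 5th to the 95th percentile of all genes with a black tick at their median. Rxrg, Rbp4 and Rarb lie below -0.5 with either treatment.

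The comparison of R6/1-RGFP109 with R6/1-vehicle asks what the inhibitor changed in the disease model. None of the 9 genes passed the fold in either direction (0 of 9), while 3.03% of all genes did. Their median ratio was -0.06, beside 0.00282 over all genes. Rbp4 had the highest ratio, with 12.1 FPKM in R6/1-vehicle and 13.3 FPKM in R6/1-RGFP109 mice (0.14), and 91.8% of all genes had a lower one. Rxrb followed with 34.8 and 37.3 FPKM (0.10) and Rxra with 9.29 and 9.63 FPKM (0.05). The remaining 6 genes were lower after RGFP109. Crabp1 was at 10.6 and 9.22 FPKM (-0.20), Rxrg at 31.9 and 28.1 FPKM (-0.18), and Aldh1a1 at 18.4 and 16.9 FPKM (-0.12). Rarb was at 26.9 and 25.2 FPKM (-0.09), with Rarg at -0.06 and Rara at -0.02. Rxrg and Rarb were thus slightly farther from the WT-vehicle level in R6/1-RGFP109 than in R6/1-vehicle mice, and Rbp4 slightly nearer.

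The comparison of WT-RGFP109 with WT-vehicle asks the same of wild type mice. Again 0 of 9 genes passed the fold, beside 3.81% of all genes, and the median ratio was -0.08 beside -0.00185 over all genes. The largest difference was that of Rxrg, with 59.9 FPKM in WT-vehicle and 47.1 FPKM in WT-RGFP109 mice, 78.7% of vehicle and a ratio of -0.34, and 3.69% of all genes had a lower ratio. Rbp4 was at 23.2 and 21.0 FPKM (-0.14), Rxra at 9.32 and 8.57 FPKM (-0.12) and Rarb at 36.9 and 34.4 FPKM (-0.10). Crabp1 at 10.7 and 11.6 FPKM (0.12) and Aldh1a1 at 23.8 and 25.3 FPKM (0.09) were higher after RGFP109. The sign of the treatment ratio was the same in both genotypes for 3 of the 9 genes, Rarb, Rarg and Rxrg, and for 49.5% of all genes.

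**Figure D4:**
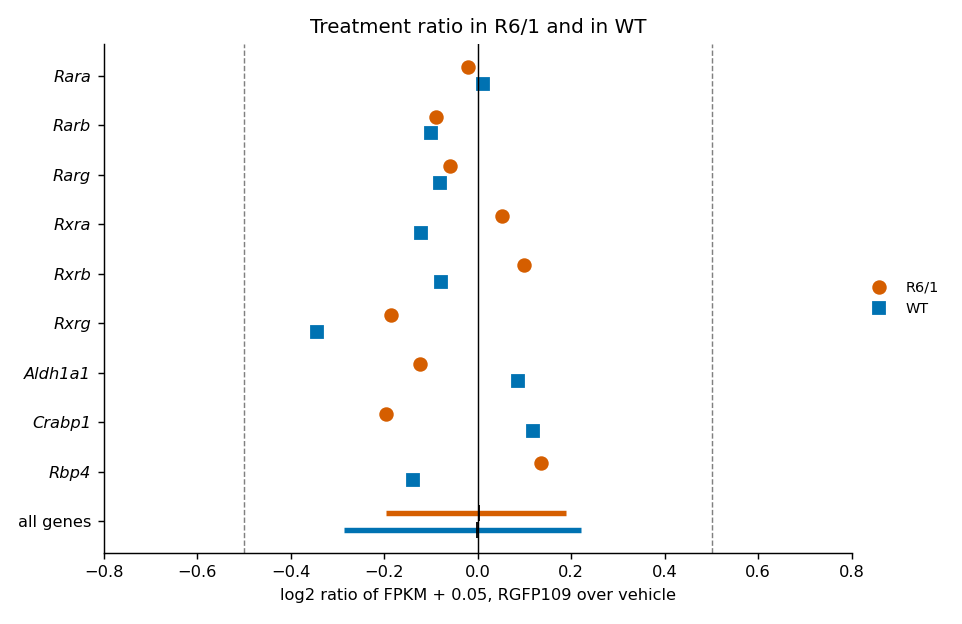
Log2 ratio of RGFP109 over vehicle group values (x axis) for the 9 retinoid genes (y axis), in R6/1 (circles) and WT mice (squares). Dashed lines mark -0.5 and 0.5, and the bottom bars run from the 5th to the 95th percentile of all genes with a black tick at their median. All 9 genes lie inside the dashed lines in both genotypes, with Rxrg in WT at -0.34 the farthest from 0.

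The other 2 tables pair groups that differ in genotype and treatment, and they share libraries with the comparisons above. In R6/1-RGFP109 against WT-vehicle, 4 genes were lower past the fold, Rxrg with 27.2 against 62.2 FPKM (-1.19), Rbp4 (-0.90), Rarb (-0.64) and Aldh1a1 (-0.59). The background there was 10.0% of genes lower and 3.89% higher. In R6/1-vehicle against WT-RGFP109, 3 genes were lower past the fold, Rbp4 (-0.90), Rxrg (-0.66) and Aldh1a1 (-0.56), beside 8.73% of all genes lower and 3.62% higher. Rarb, with a ratio of -0.46, was inside the fold there.

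Retinoid metabolism beyond the 9 genes was read from lists of genes by role, counting genes with a mean of at least 1 FPKM. Of 10 genes of retinoid synthesis and storage, 1 was lower and 1 higher past the fold in both genotype comparisons. Over all genes, 6.42% were lower past it in both, while 3.95% were higher with vehicle and 3.51% with RGFP109. Dhrs3, which reduces retinal back to retinol, was at 15.8 FPKM in WT-vehicle and 7.14 FPKM in R6/1-vehicle mice, with ratios of -1.14 with vehicle and -1.11 with RGFP109. Rdh12, a retinal reductase best known from photoreceptors, was higher, at 1.71 and 3.22 FPKM, with ratios of 0.89 and 0.88. The list's median ratios were 0.10 and 0.02. Aldh1a2, the retinaldehyde dehydrogenase of the meninges, was at 1.31 FPKM in WT-vehicle and 2.12 FPKM in R6/1-vehicle mice (0.67). Its genotype ratio with RGFP109 was 0.09, and it was lower in R6/1 mice after RGFP109 (-0.58). The retinol dehydrogenase Rdh10 stayed near 0, with genotype ratios of -0.06 and -0.07.

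Among breakdown, transport and uptake genes, Cyp26b1, Crabp2 and Ttr were lower past the fold in R6/1 mice with either treatment. Cyp26b1, which degrades retinoic acid and was the one Cyp26 gene of 3 with at least 1 FPKM, was at 3.70 FPKM in WT-vehicle and 1.71 FPKM in R6/1-vehicle mice, and its ratios were -1.09 with vehicle and -1.72 with RGFP109. Of 5 transport and uptake genes, 2 were lower past the fold in both genotype comparisons, beside 6.42% of all genes. One was Crabp2, a second cytosolic retinoic acid binding protein, with ratios of -0.72 and -0.80 and with a treatment ratio in R6/1 mice of -0.57. The other was Ttr, which encodes transthyretin, the plasma partner of Rbp4. Ttr was at 1443 FPKM in WT-vehicle, 607 in R6/1-vehicle, 305 in WT-RGFP109 and 30.5 FPKM in R6/1-RGFP109 mice. The retinol receptor Stra6 had ratios of -0.54 and 0.00 for genotype, and of -1.04 in WT and -0.51 in R6/1 mice for treatment.

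**Figure D5:**
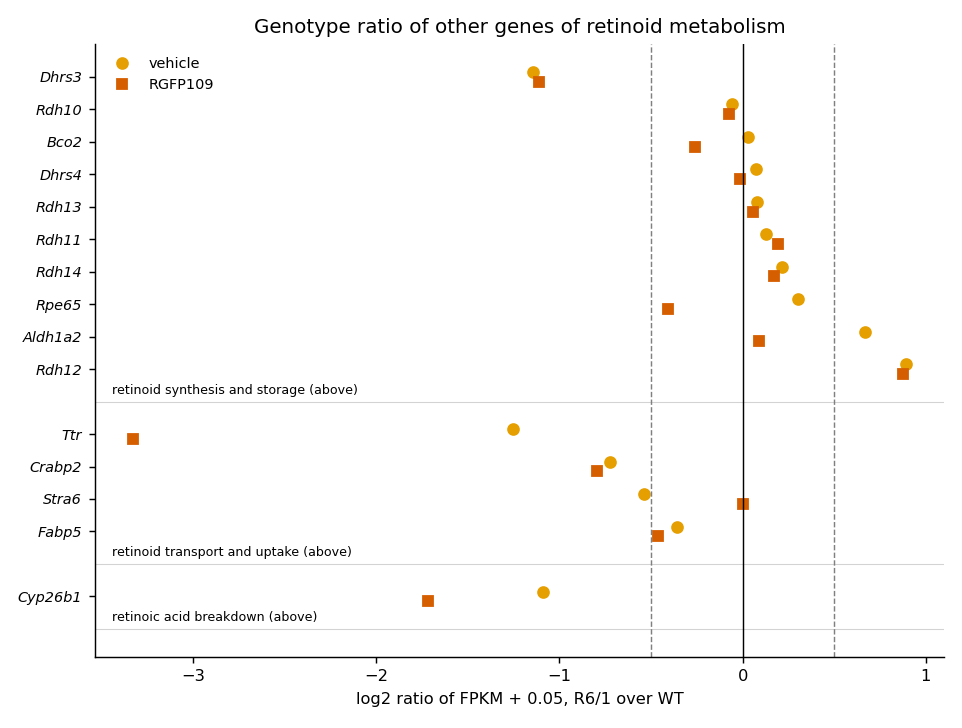
Log2 ratio of R6/1 over WT group values (x axis) for other genes of retinoid metabolism (y axis), grouped by role, with vehicle (circles) and with RGFP109 (squares). Dashed lines mark -0.5 and 0.5. Dhrs3, Ttr, Crabp2 and Cyp26b1 lie below -0.5 with either treatment and Rdh12 above 0.5.

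Genes known to respond to retinoic acid had list median ratios of -0.72 with vehicle and -0.80 with RGFP109. Of 7 such genes, 4 were lower past the fold in both genotype comparisons, beside 6.42% of all genes. These were Cyp26b1, Dhrs3, Crabp2 and the dopamine receptor gene Drd2, at 97.6 FPKM in WT-vehicle and 41.0 FPKM in R6/1-vehicle mice (-1.25 with vehicle and -1.33 with RGFP109). The list overlaps the preceding ones, and Drd2 is also a marker of striatal projection neurons. Tgm2, which encodes a transglutaminase, had ratios of -0.04 and -0.04.

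Lists were also read for nuclear receptors that pair with retinoid X receptors and for the proteins that receptors recruit. Of 8 partner receptors, 1 was lower past the fold in both genotype comparisons, beside 6.42% of all genes. It was the activity-induced Nr4a1 (-1.04 and -0.92). Its relative Nr4a2 was at 11.2 FPKM in WT-vehicle and 5.18 FPKM in R6/1-vehicle mice (-1.11), had a genotype ratio of -0.40 with RGFP109, and was higher after RGFP109 in R6/1 mice (0.80). The thyroid hormone receptor gene Thra, at 306 FPKM in WT-vehicle mice, had ratios of -0.12 and 0.03. Of 11 coregulators, 0 passed the fold in any of the 4 comparisons, and the list's median genotype ratios were 0.20 and 0.18. Over all genes, 14.1% passed it for genotype with vehicle and 12.2% with RGFP109. For treatment, 3.03% did in R6/1 and 3.81% in WT mice. They include Hdac3 at 58.5 FPKM in WT-vehicle mice (0.02 and 0.00) and Hdac1 at 3.51 FPKM (0.25 and 0.34), the targets of the inhibitor.

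Marker genes of the cells in the dissected tissue were read in the same way. The tissue expressed the striatal projection neuron markers strongly, with a summed level of 3268 to 3394 FPKM over the tables in WT-vehicle mice. All 10 were detected, and 9 of 10 were lower past the fold in both genotype comparisons, beside 6.42% of all genes. The exception was Tac1 (-0.11 and -0.43). The largest differences were those of Penk (-2.01 and -2.17), Adora2a (-1.97 and -1.93), Pde10a (-1.53 and -1.68), Rgs9 (-1.54 and -1.55), Gpr6 (-1.51 and -1.36) and Ppp1r1b (-1.36 and -1.39). The sum of the 10 markers was 1298 to 1342 FPKM in R6/1-vehicle, 3136 to 3260 in WT-RGFP109 and 1169 to 1204 FPKM in R6/1-RGFP109 mice. The list's median genotype ratios were -1.44 and -1.37, and Rxrg and Rarb lay between these medians and 0. Of 10 transcription factors of these neurons 0 were lower past the fold in either genotype comparison, with list medians of 0.04 and -0.09, and Isl1 was higher past it with vehicle (0.67). The part of these neurons in the retinoid results was not tested.

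The neocortex and oligodendrocyte lists followed another pattern. Of 8 neocortex markers, 6 were lower past the fold in R6/1-vehicle against WT-vehicle and 0 with RGFP109, and Neurod2 (0.50) and Neurod6 (0.51) were among those higher past the fold after RGFP109 in R6/1 mice. Their summed levels were 347 to 360 FPKM in WT-vehicle, 324 to 336 in WT-RGFP109, 202 to 209 in R6/1-vehicle and 255 to 264 FPKM in R6/1-RGFP109 mice. Rbp4, which is also known as a marker of deep-layer cortical neurons, had the same order of the 4 groups, an order that the oligodendrocyte sums shared. Of 6 oligodendrocyte markers, 4 were lower past the fold in R6/1-vehicle against WT-vehicle and 0 with RGFP109, and the list's median treatment ratio was -0.37 in WT and 0.12 in R6/1 mice. Their sums were 4515 to 4686 FPKM in WT-vehicle, 3513 to 3651 in WT-RGFP109, 2618 to 2709 in R6/1-vehicle and 2953 to 3044 FPKM in R6/1-RGFP109 mice. Rxrg, beside these, had ratios of -0.34 in WT and -0.18 in R6/1 mice for treatment. The part of either list in the retinoid results was not tested.

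Choroid plexus markers, of which Ttr is one, varied most between groups. Summed over all 10 markers, the level was 1445 to 1497 FPKM in WT-vehicle and 634 to 659 FPKM in R6/1-vehicle mice. It was 313 to 324 FPKM in WT-RGFP109 and 40.5 to 41.6 FPKM in R6/1-RGFP109 mice. Most of this sum was Ttr, at 1443 FPKM in WT-vehicle and 30.5 FPKM in R6/1-RGFP109 mice. Of 8 markers with at least 1 FPKM, 7 were lower past the fold in both genotype comparisons, beside 6.42% of all genes. All 8 were lower past it after RGFP109 in either genotype, with ratios in R6/1 mice from -4.33 for Ttr to -0.61 for Clic6. Folr1 (-2.61), Aqp1 (-2.93), Kcnj13 (-2.68), Kcne2 (-2.09), Kl (-1.89) and Otx2 (-1.42) lay between. The list's median genotype ratios were -1.21 with vehicle and -1.48 with RGFP109, beside -1.03 and -0.76 for Rbp4. Its median treatment ratios were -1.82 in WT and -2.35 in R6/1 mice, beside -0.14 and 0.14 for Rbp4. Crabp2 and Stra6 were also lower after RGFP109 in both genotypes. The part of the choroid plexus in the values of Rbp4, Crabp2 and Stra6 was not tested.

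Further lists covered vessels, glia, meninges and midbrain neurons. Of 6 endothelial markers, 2 were lower past the fold in both genotype comparisons, Cldn5 (-0.68 and -0.55) and Slco1c1 (-0.66 and -0.61). Of 6 astrocyte markers 1 was, Slc1a2 (-0.73 and -0.68). The share over all genes was 6.42%. Of 5 microglia markers 0 passed the fold in both, with list medians of -0.29 and -0.27. Of 6 meningeal fibroblast markers Fmod was higher past it in both (1.06 and 0.64), and Igf2 (-0.93), Fmod (-0.63) and Ogn (-0.53) were lower after RGFP109 in R6/1 mice, as was Aldh1a2. In WT mice Igf2 (-1.04) and Dcn (-0.88) were lower after RGFP109. Aldh1a1, which is known from midbrain dopamine neurons, was set beside 3 of their markers with a mean of at least 1 FPKM. The list held 1 further marker, which was under that limit. Th was at 4.45 FPKM in WT-vehicle, 4.36 in R6/1-vehicle, 9.15 in WT-RGFP109 and 3.76 FPKM in R6/1-RGFP109 mice, so its genotype ratio was -0.03 with vehicle and -1.27 with RGFP109 and its treatment ratio in WT mice was 1.03. Slc18a2 (0.14 and -0.13) and Ddc (0.03 and 0.31) stayed inside the fold in both genotype comparisons.

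The genes whose levels over the 4 groups lay nearest to those of the 3 genes past the fold in both genotype comparisons were sought among 13714 others, by the distance between their log2 levels after centering each gene on its mean. Nearest to Rarb were Lgi4, Fam160b2 and Rab40b, at distances of 0.02, 0.02 and 0.03, and 148 genes lay within 0.1. Nearest to Rbp4 were Fam129c, Olfm1 and Rassf3, at 0.02, 0.02 and 0.04, with 23 genes within 0.1. Olfm1, which encodes a secreted neuronal glycoprotein, was at 475 FPKM in WT-vehicle and 231 FPKM in R6/1-vehicle mice. Nearest to Rxrg were Clec18a, Tmem200b and Spint1, at 0.04, 0.09 and 0.11, with 2 genes within 0.1. A fixed distance holds more genes around a gene with small ratios such as Rarb than around one with large ratios such as Rxrg, so these counts are not compared. With 4 group values a gene, this is a description of likeness.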

How the data were processed

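RNA-seq libraries of mouse striatum were made with the TruSeq RNA kit and read once over 51 bases. The authors aligned reads with STAR 2.5.0b to mm10, computed FPKM with Cufflinks 2.2.1 and compared each pair of the 4 groups with Cuffdiff, and the deposited tables hold 1 FPKM value per group and gene. Further columns hold the authors' fold changes, statistics, p-values and q-values and were not used. Without read counts the depth of a library is not known from these tables, so values have neither an interval nor a detection limit. A strand setting is not given in the sources used here.

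Genes found once in all 6 tables were kept (24340). Log2 ratios were computed within each table after adding 0.05 FPKM, with 0.5 as the fold and a mean of at least 1 FPKM for the background, and these understate changes of low genes. The study added 0.05 FPKM when ranking genes for set enrichment and used 0.5 together with a q-value limit, which was not applied here. Coordinates are those of the tables on mm10, and exon overlaps came from GENCODE M21. Named list genes are up to 6 per list with the largest mean genotype ratio among those past the fold in both genotype comparisons, and any past the fold after treatment, and a few others were named for their role after their values were seen. Results of 2 list genes are not reported here by name. The 9 genes and the lists were chosen with earlier results of these data known. Group medians over 3 tables describe levels. The script was tested on simulated data. Alternatives covered the pseudocount, the fold, centering, the filter and the table used. Python 3.11.15, numpy 2.4.6, pandas 2.3.3 and matplotlib 3.10.9 were used.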

Additional observations from a re-analysis of the deposited data

How the results depend on the processing

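No paired analysis was possible because the tables hold 1 value per group, and for the same reason no mouse could be left out in turn. All 216 alternative ratios of the 9 genes kept their sign and their side of the fold. They used no pseudocount, 1 FPKM as pseudocount, centering on the median of all genes, or values from the tables of other pairs. Values from the tables of other pairs moved no ratio by more than 0.00228. Those tables hold the same group values up to a nearly common factor, so this is no independent check. Centering could also move ratios little, because the medians of all genes ran from -0.00387 to 0.00969. The counts of genes past the fold depended on the fold chosen. At a fold of 1.2 there were 6 in R6/1-vehicle against WT-vehicle (35.7% of all genes), 5 in R6/1-vehicle against WT-RGFP109 (30.8%) and 1 in WT-RGFP109 against WT-vehicle (9.57%). At a fold of 1 on the log2 scale there were 0 in R6/1-RGFP109 against WT-RGFP109 (3.69%), 0 in R6/1-vehicle against WT-RGFP109 (3.84%) and 1 in R6/1-RGFP109 against WT-vehicle (4.10%). The share of all genes past the fold was higher with a filter of 0.1 FPKM or none, to 5.27% and 6.09% in R6/1-RGFP109 against R6/1-vehicle and to 7.13% and 8.53% in WT-RGFP109 against WT-vehicle. Group values without replicates limit every statement here to these pooled mice, and depth is unknown.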
